A study of Mus musculus with 14 samples.

Results

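The 45 genes described here take part in the cell division cycle. Chosen by symbol from a list of replication and mitosis genes, they were followed through sorted colon cells of mice bred to lose Tsc2 in myeloid cells and of their controls. The list held 20 genes of DNA replication (S phase) and 25 genes of the late cycle (G2 and mitosis), and all 45 were found by symbol among 55487 genes. Stmn1, which encodes a protein that destabilises microtubules, was counted with the mitotic genes. Every animal carried floxed Tsc2 alleles. The cre animals were Tsc2fl/fl Lyz2cre/+ and the wt animals Tsc2fl/fl Lyz2+/+. Epithelial cells, sorted as EpCAM+, CD44+ and CD45-, gave 4 cre libraries (cre_EC, mice 5, 8, 9 and 10, of which mouse 5 was female) and 4 wt libraries (wt_EC, mice 2, 4, 6 and 7, of which mice 2 and 4 were female). Lamina propria macrophages gave 3 cre libraries (cre_LP, mice 8, 9 and 10, all male) and 3 wt libraries (wt_LP, mice 2, 4 and 6, of which mice 2 and 4 were female). Ages were not given in the labels.

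The Lyz2 promoter drives the recombinase in myeloid cells, so the epithelium was not its intended target and was compared as tissue lying beside the macrophages meant to lose Tsc2. Because the recombinase was never present without floxed Tsc2, an effect of that allele and one of the deletion cannot be told apart. The titles number 4 wt mice, whereas the series text counts 3 control animals. If the text is right, 2 wt_EC libraries may share an animal and the p-values are too small.

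A dividing cell first loads the Mcm2-7 helicase onto replication origins, then fires them and copies its DNA in S phase, when enzymes of nucleotide supply are in demand. In G2 and mitosis cyclin B and Cdk1, the Polo and Aurora kinases and the spindle proteins take over, and the anaphase promoting complex ends mitosis. Replication genes are classically switched on by E2F factors, and late genes by the MuvB complex with B-Myb and FoxM1. Promoter elements named CHR and CCAAT are typical of late genes. In the colon, division is a property of the crypt base and of the transit amplifying cells above it, the compartment that CD44 enriches.

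Promoters are shown because the classes held these elements at different shares. Windows of 300 bases, 250 before and 50 after the start of each gene, came from RefSeq on GRCm38.p6 and were found for 36 of the 45 members. Aurkb, Ccna2, Ccne2, Foxm1, Gins2, Kif20a, Mcm4, Stmn1 and Tpx2 were not matched. The letters searched on both strands were TTTGAA for CHR, CCAAT for the CCAAT box, and TTTCCCGC, TTTGGCGC, TTTCGCGC or TTTGCCGC for the E2F site. Capitals mark every match, so a match on the other strand reads as the reverse complement (ATTGG for a CCAAT box). Top2a (chr11:99024140-99024439, minus strand), Birc5 (chr11:117848987-117849286, plus strand) and Tyms (chr5:30073576-30073875, minus strand) are shown because they passed the test between genotypes in the epithelium. Cenpa (chr5:30666636-30666935, plus strand) and Mcm5 (chr8:75109259-75109558, plus strand) were chosen after their motifs and values were seen, as examples of a late and a replication promoter.
Top2a: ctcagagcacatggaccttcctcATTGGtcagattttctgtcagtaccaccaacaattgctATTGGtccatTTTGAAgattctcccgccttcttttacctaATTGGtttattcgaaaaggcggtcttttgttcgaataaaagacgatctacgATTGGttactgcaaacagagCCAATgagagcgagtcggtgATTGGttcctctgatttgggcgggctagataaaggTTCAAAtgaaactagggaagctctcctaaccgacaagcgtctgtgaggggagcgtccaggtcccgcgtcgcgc
Birc5: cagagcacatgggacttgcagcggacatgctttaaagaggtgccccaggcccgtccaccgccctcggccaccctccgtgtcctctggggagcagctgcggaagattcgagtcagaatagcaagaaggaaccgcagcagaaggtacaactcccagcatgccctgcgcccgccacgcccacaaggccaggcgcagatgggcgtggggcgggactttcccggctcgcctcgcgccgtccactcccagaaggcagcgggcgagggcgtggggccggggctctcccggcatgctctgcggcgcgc
Cenpa: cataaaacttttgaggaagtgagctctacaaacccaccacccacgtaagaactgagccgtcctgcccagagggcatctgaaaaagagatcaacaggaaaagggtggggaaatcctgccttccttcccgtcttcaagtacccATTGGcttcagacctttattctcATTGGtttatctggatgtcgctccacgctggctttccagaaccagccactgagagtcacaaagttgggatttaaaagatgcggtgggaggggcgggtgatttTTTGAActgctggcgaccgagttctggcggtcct
Tyms: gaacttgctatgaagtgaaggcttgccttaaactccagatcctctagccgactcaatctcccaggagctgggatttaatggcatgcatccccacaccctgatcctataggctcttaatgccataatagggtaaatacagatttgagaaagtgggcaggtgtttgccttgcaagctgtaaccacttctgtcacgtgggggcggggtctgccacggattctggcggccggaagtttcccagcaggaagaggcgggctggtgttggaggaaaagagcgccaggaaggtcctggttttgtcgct
Mcm5: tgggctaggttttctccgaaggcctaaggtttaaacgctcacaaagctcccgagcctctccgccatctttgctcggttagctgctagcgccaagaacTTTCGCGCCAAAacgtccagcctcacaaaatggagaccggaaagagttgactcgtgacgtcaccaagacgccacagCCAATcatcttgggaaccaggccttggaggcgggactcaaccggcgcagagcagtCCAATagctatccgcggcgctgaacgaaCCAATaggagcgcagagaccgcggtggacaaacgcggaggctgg

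The Top2a window held 2 CHR words and 6 CCAAT boxes, and the Cenpa window 1 CHR word and 2 CCAAT boxes. The Mcm5 window held 3 CCAAT boxes and 2 E2F words that overlap each other. None of the letters searched occurred in the windows of Birc5 and Tyms. Among the 19 mitotic members with a window, 14 held a CHR word (73.7%), against 2 of 17 replication members (11.8%) and 20.2% of the 27025 genes with a window. CCAAT boxes were in 17 of 19 mitotic (89.5%) and 10 of 17 replication windows (58.8%), against 41.1% of all genes. E2F words were in 7 of 17 replication windows (41.2%) and in 1 of 19 mitotic windows (5.26%, Cdk1), against 2.6% of all genes. These matches describe letters in a window and were not set against binding data.

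Libraries held between 7269103 and 9364551 counts. Whole-gene Tsc2 did not separate the genotypes, at 52.2 to 60.4 CPM (read counts normalised to library size) in cre_EC and 49.1 to 54.8 CPM in wt_EC, and at 24.1 to 31.9 CPM in cre_LP and 22.9 to 37.0 CPM in wt_LP. Those counts cover the whole gene, so they do not measure the deleted exons alone. The sorts matched their labels: all 14 pan-epithelial markers were higher in epithelial libraries, and the 11 macrophage markers summed to 33.6 to 68.6 CPM in cre_EC and 50.5 to 95.5 CPM in wt_EC, against 7622 CPM or more in every macrophage library. Macrophage libraries also held stromal RNA (8 markers, 932 to 2725 CPM in cre_LP and 3139 to 5282 CPM in wt_LP) and B and plasma cell RNA (6 markers, 1018 to 1704 CPM in cre_LP and 567 to 2673 CPM in wt_LP). The 7 T cell markers summed to 175.5 to 211 CPM in cre_LP and 43.5 to 80.4 CPM in wt_LP, and the 6 dendritic cell markers to 61.9 to 91.8 CPM in cre_LP and 134.5 to 169.9 CPM in wt_LP, each without overlap. The stromal sums did not overlap either, nor did those of the 11 macrophage markers (11934 to 15804 CPM in cre_LP, 7622 to 10332 CPM in wt_LP). The ribosomal RNA gene CT010467.1 took 7.37%, 26.7%, 8.53% and 10.6% of counts in cre_EC mice 5, 8, 9 and 10, against 20.6%, 18.5%, 31.8% and 22.8% in wt_EC mice 2, 4, 6 and 7.

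Within the epithelium 5 of the 45 cell cycle genes differed between genotypes, and they came from both classes. Stmn1, Birc5, Foxm1 and Tyms rose in cre_EC and Top2a fell. That is 11.1% of the members, against 9.17% of all 13553 genes tested (edgeR quasi-likelihood test, Benjamini-Hochberg adjusted p under 0.05). At an unadjusted p under 0.05 there were 10 members (22.2%), a smaller share than the 3696 of all genes (27.3%). The replication class had 1 gene higher and 0 lower, and the mitotic class 3 higher and 1 lower, beside a background of 5.64% higher and 3.53% lower. The median log2 change, cre_EC minus wt_EC, was 0.13 over the 20 replication genes and 0.14 over the 25 mitotic genes, against -0.05 over all genes. Positive values were found for 12 of 20 replication and 17 of 25 mitotic genes, against 44.8% of all genes. In bulk RNA, fewer cells of a type and less RNA per cell cannot be told apart.

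Stmn1 (chromosome 4, 134468320 to 134473843, GRCm38) was the most abundant member per transcript length. It stood at 287, 241, 270.3 and 288 CPM in cre_EC mice 5, 8, 9 and 10, against 200.4, 225, 139.7 and 184 CPM in wt_EC mice 2, 4, 6 and 7. Every cre_EC library lay above every wt_EC library. Its log2 difference, cre_EC minus wt_EC, was 0.54 (SE 0.128, adjusted p = 0.0204 by edgeR).

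Birc5 (chromosome 11, 117849251 to 117855743) encodes survivin, the subunit that places the chromosomal passenger complex at centromeres. It stood at 139, 115.4, 129 and 123 CPM in cre_EC, against 70.3, 100.2, 62.0 and 95.5 CPM in wt_EC, in the same order of mice. The groups did not overlap, and cre_EC exceeded wt_EC by a log2 change of 0.63 (SE 0.143, adjusted p = 0.0171 by edgeR). Its partner kinase in that complex, Aurkb, averaged 50.4 ± 6.18 CPM in cre_EC and 44.7 ± 11.2 CPM in wt_EC (SD, n = 4 each; log2 change 0.17, adjusted p = 0.539 by edgeR).

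Foxm1 (chromosome 6, 128362967 to 128376146) encodes a transcription factor of late cycle genes and was a low gene here. It stood at 11.5, 6.02, 8.74 and 7.40 CPM in cre_EC, against 1.84, 3.71, 3.50 and 5.78 CPM in wt_EC. The lowest cre_EC library (mouse 8) lay just above the highest wt_EC library (mouse 7). The log2 change of 1.18 (SE 0.310, adjusted p = 0.0311 by edgeR) was the largest among the members.

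Tyms (chromosome 5, 30058202 to 30073617) encodes thymidylate synthase, which makes dTMP, and was the only replication gene to pass. It stood at 134.6, 101, 113 and 117 CPM in cre_EC, against 87.4, 103, 63.1 and 82.9 CPM in wt_EC. The groups overlapped, since wt_EC mouse 4 lay above cre_EC mouse 8. It rose in cre_EC by a log2 change of 0.47 (SE 0.139, adjusted p = 0.0485 by edgeR).

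Top2a (chromosome 11, 98992943 to 99024189) encodes the topoisomerase that untangles chromosomes before they separate, and it moved the other way. It stood at 32.4, 49.1, 35.0 and 52.6 CPM in cre_EC, against 67.6, 75.9, 54.3 and 54.6 CPM in wt_EC. The groups did not overlap, although cre_EC mouse 10 and wt_EC mouse 6 were close. On the log2 scale Top2a changed by -0.58 (SE 0.170, adjusted p = 0.0458 by edgeR). It no longer passed with sex as a covariate (-0.57, adjusted p = 0.0668 by edgeR) or by limma on log2(FPKM + 1) (-0.48, adjusted p = 0.0692) and on log2(FPKM + 0.1) (-0.54, adjusted p = 0.0707). Mki67, the proliferation marker that coats mitotic chromosomes, averaged 10.5 ± 1.10 CPM in cre_EC and 12.6 ± 4.51 CPM in wt_EC (SD, n = 4 each; log2 change -0.26, adjusted p = 0.479 by edgeR).

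**Figure D1:**
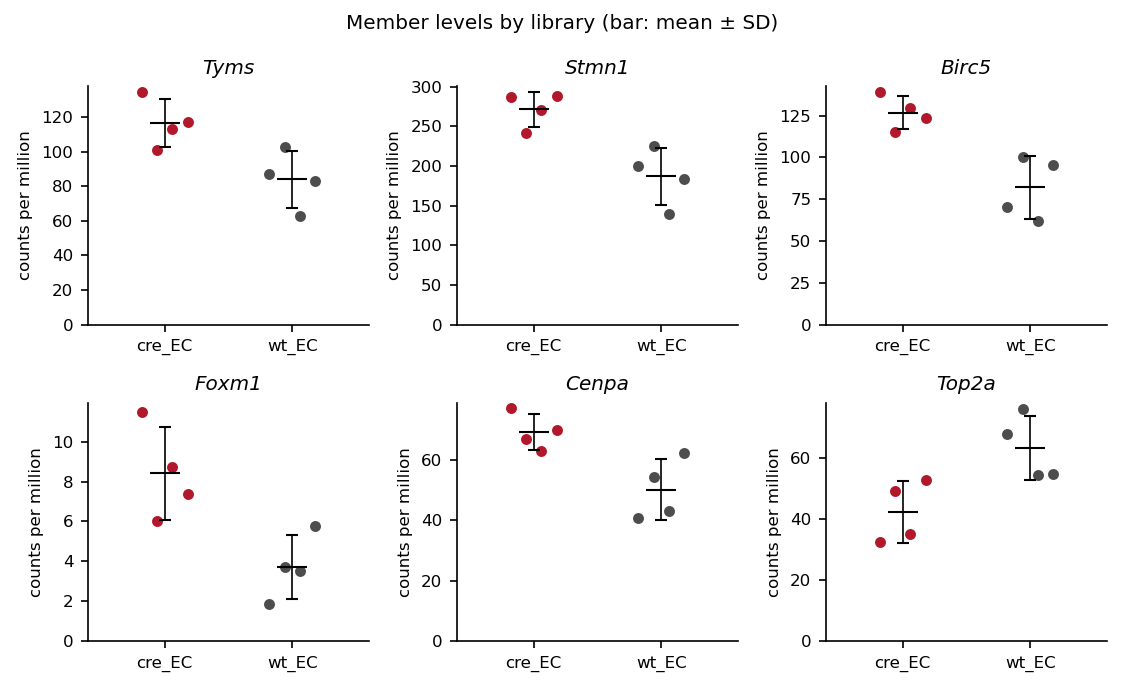
Normalised read counts (CPM) of the 5 genes that passed and of Cenpa, with 1 point per epithelial library (4 cre_EC, 4 wt_EC) and bars for mean ± SD. Stmn1, Birc5, Foxm1 and Cenpa have every cre_EC point above every wt_EC point, Top2a has every cre_EC point below, and the groups overlap for Tyms.

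The complete separation of libraries that the plot of levels shows was found for 4 members above (Stmn1, Birc5, Foxm1 and Cenpa) and 1 below (Top2a), all of the mitotic class, against 9.92% of all genes above and 6.68% below. Cenpa, the histone variant that marks centromeres, missed the threshold. It stood at 77.0, 66.8, 62.7 and 69.9 CPM in cre_EC, against 40.7, 54.1, 42.9 and 62.3 CPM in wt_EC. On the log2 scale its difference was 0.47 (SE 0.141, adjusted p = 0.0514 by edgeR). Cenpa passed in 7 of 21 alternatives, among them DESeq2 and both limma fits on FPKM, and did not pass in the other 14.

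These calls depended on single libraries. With cre_EC mouse 5 or cre_EC mouse 9 left out 0 of 45 members passed, without wt_EC mouse 2 only Stmn1 did, and without cre_EC mouse 10 Birc5 and Top2a did. Calls over all genes fell in the same fits, from 1243 to 318, 178, 682 and 548 in that order. Stmn1 had adjusted p of 0.0764, 0.0664 and 0.0677 without cre_EC mouse 5, 9 and 10. Birc5 had 0.0702, 0.0641 and 0.0528 without cre_EC mouse 5, cre_EC mouse 9 and wt_EC mouse 2. Foxm1 had 0.120, 0.0946, 0.0626, 0.0708 and 0.0626 without cre_EC mouse 5, 9 and 10 and wt_EC mouse 2 and 4. Top2a had 0.145, 0.153, 0.101 and 0.116 without cre_EC mouse 5 and 9 and wt_EC mouse 2 and 4. Tyms had adjusted p between 0.0804 and 0.159 without each of cre_EC mice 5, 9 and 10 and wt_EC mice 2, 6 and 7. The sign of each of these 5 changes was kept in every such fit (edgeR throughout). Between males alone (3 cre_EC, 2 wt_EC) 0 of 45 passed, beside 5 of all genes. The changes between males were 0.73 for Stmn1, 0.64 for Birc5, 0.66 for Foxm1, 0.60 for Tyms and -0.25 for Top2a.

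The ribosomal RNA share was lower in 3 of 4 cre_EC libraries than in every wt_EC library. With that share as a covariate 0 of 45 members passed, and over all genes 3 were called, against 1243 without it. The changes were then 0.32 for Stmn1, 0.44 for Birc5, 0.89 for Foxm1, 0.23 for Tyms and -0.53 for Top2a. The part of the ribosomal RNA share in the result was not tested further. Mitochondrial genes took 10.4% to 10.7% of counts in cre_EC and 11.6% to 18.1% in wt_EC, without overlap. The 14 pan-epithelial markers summed to 14430 to 17502 CPM in cre_EC and 11246 to 13108 CPM in wt_EC, and of these 3 rose (Krt8, Krt18 and Lgals4) and Cdh1 fell. Cd44, one of the antigens of the sort, averaged 73.2 ± 8.67 CPM in cre_EC and 134 ± 13.8 CPM in wt_EC (SD, n = 4 each), with a log2 change of -0.87 (adjusted p = 0.00648 by edgeR). The 15 stem cell and Wnt target markers summed to 404 to 483 CPM in cre_EC and 532 to 663 CPM in wt_EC, and 3 of the 13 tested fell (Cd44, Slc12a2 and Cdca7). The part of these shares and markers in the cell cycle values was not tested.

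**Figure D2:**
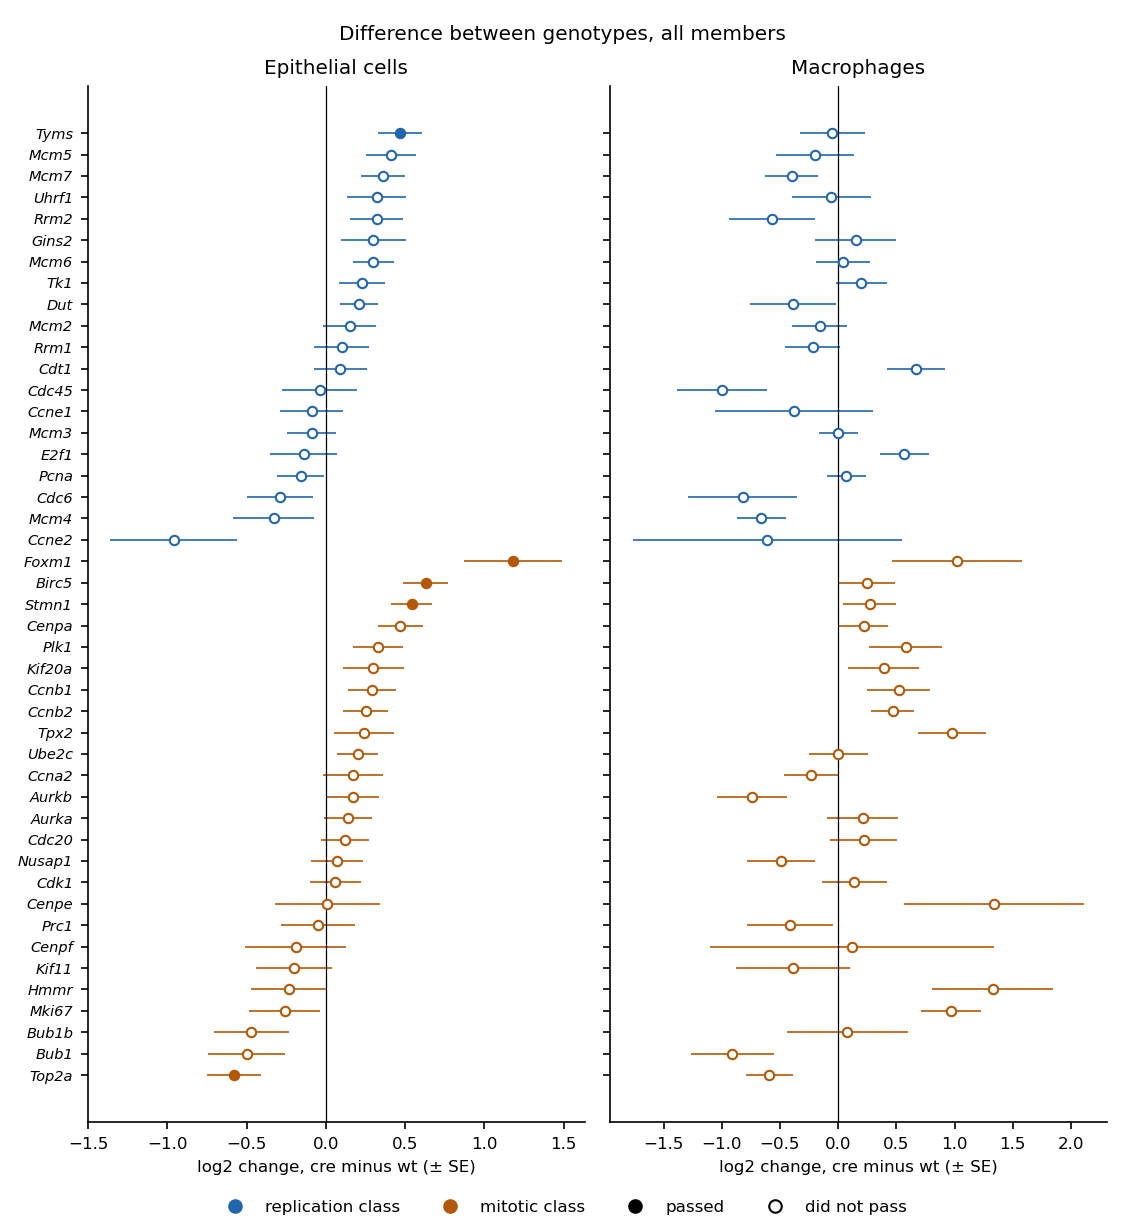
Log2 change, cre minus wt, of every member in epithelial cells (left, 4 against 4 libraries) and macrophages (right, 3 against 3), with bars of 1 SE and filled points for genes that passed. In the epithelium 5 points are filled and both classes spread to either side of 0; in macrophages none is filled.

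Among the replication genes the helicase subunits came next to Tyms. Mcm7 stood at 249, 211, 237 and 267 CPM in cre_EC, against 174.6, 227, 136 and 213 CPM in wt_EC, a log2 change of 0.36 (SE 0.139, adjusted p = 0.108 by edgeR). Mcm5 stood at 225, 220.4, 239 and 249.7 CPM in cre_EC, against 178, 227, 113 and 185 CPM in wt_EC, a log2 change of 0.41 (SE 0.157, adjusted p = 0.112 by edgeR). In both genes wt_EC mouse 6 was the lowest library and wt_EC mouse 4 lay within the cre_EC range. Ccne2, a cyclin that opens S phase with Cdk2, had the largest negative value of the members, with 2.64, 5.25, 3.07 and 2.70 CPM in cre_EC and 9.71, 10.1, 3.35 and 2.95 CPM in wt_EC. Only the wt_EC females (mice 2 and 4) stood high, the log2 change was -0.96 (SE 0.399, adjusted p = 0.137 by edgeR), and between males it was 0.22.

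The other helicase subunits had log2 changes of 0.30 (Mcm6), 0.15 (Mcm2), -0.09 (Mcm3) and -0.33 (Mcm4). Between males the changes of all 6 subunits lay between 0.03 (Mcm4) and 0.67 (Mcm5). The values were 0.09 for Cdt1 and -0.29 for Cdc6, which act in helicase loading, and 0.30 for Gins2 and -0.04 for Cdc45, which act in origin firing. The 5 genes of nucleotide supply were all positive: beside Tyms, the ribonucleotide reductase subunits Rrm2 and Rrm1 had 0.32 and 0.10, thymidine kinase Tk1 0.23 and the dUTPase Dut 0.21, although Rrm1 was at -0.06 without wt_EC mouse 6. The maintenance methylation factor Uhrf1 had 0.32 and the sliding clamp Pcna -0.16, while Ccne1 and E2f1 had -0.09 and -0.14. None of these but Tyms passed.

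Among mitotic genes that did not pass, Plk1 and Bub1 followed Cenpa. Plk1, a kinase of mitotic entry and exit, stood at 55.3, 42.5, 53.7 and 64.0 CPM in cre_EC, against 38.6, 48.7, 33.1 and 50.7 CPM in wt_EC, a log2 change of 0.33 (SE 0.158, adjusted p = 0.192 by edgeR). Bub1, a kinase of the spindle checkpoint, stood at 6.40, 5.64, 5.57 and 7.60 CPM in cre_EC, against 7.25, 10.9, 5.74 and 11.6 CPM in wt_EC, a log2 change of -0.50 (SE 0.244, adjusted p = 0.204 by edgeR). In both genes the groups overlapped.

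The mitotic cyclins and their kinase were all slightly positive, with log2 changes of 0.29 (Ccnb1), 0.25 (Ccnb2), 0.17 (Ccna2) and 0.06 (Cdk1). However, Cdk1 was at -0.04 without wt_EC mouse 6 and -0.03 without wt_EC mouse 2, and Ccna2 was at 0 without wt_EC mouse 6. Without cre_EC mouse 8 and wt_EC mouse 6 together, Ccna2 was at -0.05 and Cdk1 at -0.09, while Ccnb1 and Ccnb2 were at 0.21 and 0.13. Partners of the anaphase promoting complex had 0.20 (Ube2c) and 0.12 (Cdc20). Among spindle proteins Kif20a had 0.30, Tpx2 0.24, Nusap1 0.07, Prc1 -0.05, Kif11 -0.20 and Hmmr -0.23. Checkpoint and kinetochore genes were mixed, with 0.01 for the motor Cenpe, -0.19 for Cenpf and -0.47 for Bub1b. None of these passed.

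Other genes of the same processes were read from fixed lists, in which 5.1% (replication), 6.2% (mitosis) and 8.3% (cell cycle control) of the genes tested were called, beside the 9.17% of all genes. Of 39 other replication genes tested, Rfc2, a clamp loader subunit, rose (182 ± 7.03 CPM in cre_EC and 131 ± 13.9 CPM in wt_EC, SD, n = 4 each; log2 change 0.47, adjusted p = 0.0130 by edgeR) and Pola1, the catalytic subunit of DNA polymerase alpha, fell (29.0 ± 5.69 CPM in cre_EC and 42.9 ± 7.96 CPM in wt_EC; -0.57, adjusted p = 0.0498 by edgeR). The median of that list was 0.05. Of 48 other mitotic genes, the microtubule depolymerase Kif2c (0.70, adjusted p = 0.0184 by edgeR) and the kinase Pbk (0.65, adjusted p = 0.0325 by edgeR) rose, and Ect2, a cytokinesis regulator, fell (-0.80, adjusted p = 0.0117 by edgeR), with a list median of 0.11. Of 36 cell cycle control genes, Fzr1, which activates the anaphase promoting complex, rose (0.63, adjusted p = 0.0272 by edgeR), while the E2F repressor Rb1 (-0.95, adjusted p = 0.0193 by edgeR) and the MuvB subunit Lin54 (-0.94, adjusted p = 0.0238 by edgeR) fell, with a median of -0.09.

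The spread within groups is given as a description, with no test. The median coefficient of variation over the 45 members was 12.2% in cre_EC and 25.0% in wt_EC, and it was smaller in cre_EC for 41 members. The lowest of the 8 libraries was wt_EC mouse 6 for 26 members and wt_EC mouse 2 for 8. How far wt_EC mouse 6 set this spread was not computed, nor was the spread over all genes. The median deviation of wt_EC mouse 6 from the mean of the 8 libraries was -0.60 (log2 CPM) over replication and -0.40 over mitotic members, and it also had the highest ribosomal RNA share, 31.8%. Without it the class medians were -0.03 for replication and 0.04 for mitotic genes. With the ribosomal RNA share as a covariate they were -0.05 and 0.06, so the positive sign of the replication class depended on either choice.

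**Figure D3:**
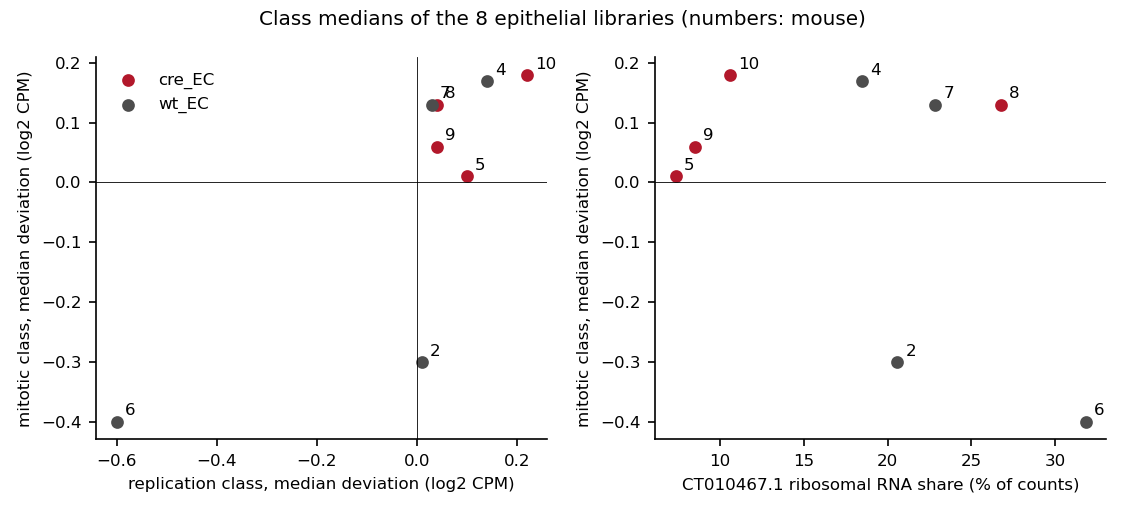
Median deviation (log2 CPM, from the mean of the 8 epithelial libraries) of the mitotic class against that of the replication class (left) and against the ribosomal RNA share of counts in percent (right), with 1 point per library numbered by mouse. Mouse 6 of wt_EC lies at -0.60 and -0.40 with a share of 31.8%, and the other 7 libraries lie at or above -0.30 on both class axes.

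The deposited FPKM values, which are scaled per transcript length, allow levels to be set beside one another. Stmn1 was highest, at 133 ± 10.1 FPKM in cre_EC and 89.3 ± 17.0 FPKM in wt_EC (SD, n = 4 each), followed by Mcm7 at 57.2 ± 5.16 FPKM in cre_EC and 43.2 ± 9.51 FPKM in wt_EC. The lowest were Cenpf, at 0.331 ± 0.0625 FPKM in cre_EC and 0.363 ± 0.165 FPKM in wt_EC, and Cenpe, at 0.396 ± 0.0519 FPKM in cre_EC and 0.379 ± 0.167 FPKM in wt_EC. Mki67 was also low, at 0.737 ± 0.0787 FPKM in cre_EC and 0.852 ± 0.304 FPKM in wt_EC.

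Summed over the class, replication genes reached 411 ± 28.1 FPKM in cre_EC, 343 ± 69.6 FPKM in wt_EC (SD, n = 4 each), 159 ± 13.8 FPKM in cre_LP and 168 ± 26.7 FPKM in wt_LP (SD, n = 3 each). Mitotic genes summed to 432 ± 16.6 FPKM in cre_EC, 339 ± 66.1 FPKM in wt_EC, 141 ± 16.0 FPKM in cre_LP and 127 ± 9.48 FPKM in wt_LP. The mitotic sum over the replication sum was 1.01 to 1.09 in cre_EC and 0.889 to 1.06 in wt_EC, which overlap, and 0.807 to 1.01 in cre_LP and 0.675 to 0.826 in wt_LP. Without Stmn1 the ratio was 0.728 ± 0.0354 in cre_EC and 0.733 ± 0.0951 in wt_EC (SD, n = 4 each).

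Epithelial values also differed with the base composition of the transcripts. Among the 12 members with a GC content under 45%, a limit set after the values were seen, 8 were negative and the median log2 change was -0.19. Among the other 33 members 8 were negative and the median was 0.21. Over all 13553 genes tested 7478 were negative and the median was -0.05, and their values were not split by GC content. Top2a had 42.9% GC, against a median of 49.9% over all genes tested, 51.3% over replication and 47.7% over mitotic members. After a trend of expression on GC content and length was removed in each library, the change of Top2a was -0.39 (adjusted p = 0.129 by edgeR) and that of Foxm1 1.08 (adjusted p = 0.0512 by edgeR). Stmn1 (0.52, adjusted p = 0.0270 by edgeR), Birc5 (0.78, adjusted p = 0.0175 by edgeR) and Tyms (0.51, adjusted p = 0.0449 by edgeR) still passed. The removal acted beyond the members: over all genes the calls went from 765 higher and 478 lower to 463 higher and 130 lower.

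**Figure D4:**
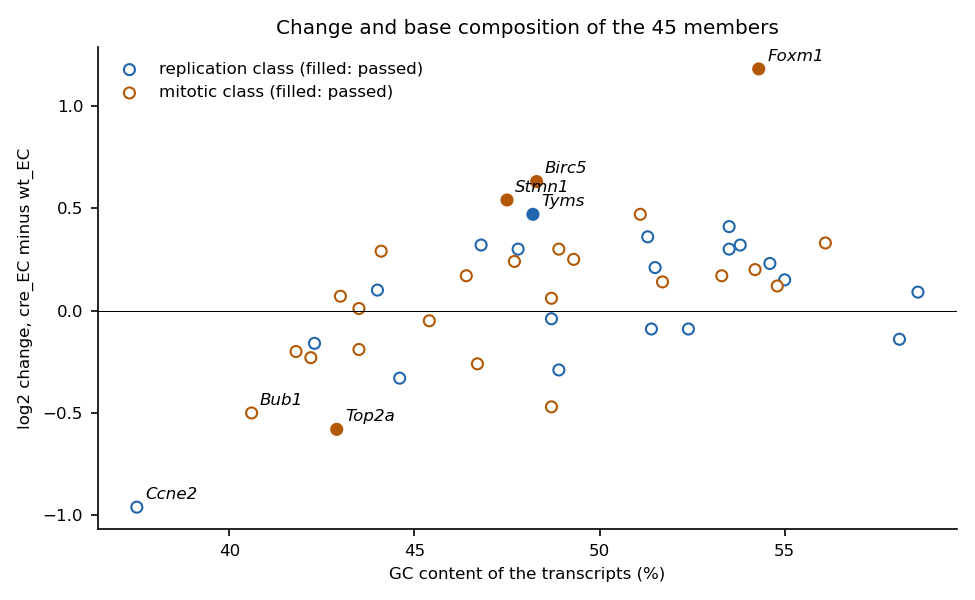
Log2 change, cre_EC minus wt_EC, against GC content of the transcripts in percent, with 1 point per member and filled points for those that passed. Members under 45% GC lie mostly below 0 (8 of 12), and the 33 others mostly above.

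In the macrophages, the cells in which Lyz2cre is meant to act, 0 of the 45 members passed (edgeR), against 0.944% of the 14087 genes tested. At an unadjusted p under 0.05 there were 11 members (24.4%), beside 1802 of all genes (12.8%), and DESeq2 also called 0 members. The median log2 change, cre_LP minus wt_LP, was -0.18 over replication genes and 0.22 over mitotic genes, against 0 over all genes. The replication median was 0.04 with sex as a covariate and 0.08 without wt_LP mouse 2. All cre_LP libraries were male, so sex and genotype are largely confounded there.

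Mki67 had the smallest p among the macrophage values, with 21.7, 14.6 and 15.2 CPM in cre_LP (mice 8, 9 and 10), against 9.83, 7.54 and 8.89 CPM in wt_LP (mice 2, 4 and 6). The groups did not overlap, with a log2 difference of 0.97 (SE 0.258, adjusted p = 0.148 by edgeR). Tpx2, which activates Aurora A on the spindle, stood at 12.9, 12.9 and 16.2 CPM in cre_LP, against 5.53, 6.22 and 9.48 CPM in wt_LP (0.98, SE 0.291, adjusted p = 0.189 by edgeR). Top2a stood at 18.2, 22.0 and 23.8 CPM in cre_LP, against 27.0, 33.1 and 36.3 CPM in wt_LP, a log2 change of -0.59 (SE 0.202, adjusted p = 0.259 by edgeR). Complete separation of the macrophage libraries was found for 10 members with cre_LP above (Mki67, Tpx2, Ccnb1, Ccnb2, Cdt1, E2f1, Foxm1, Hmmr, Kif20a and Plk1) and 5 with cre_LP below (Top2a, Aurkb, Bub1, Cdc45 and Mcm4), against 10.3% of all genes above and 9.6% below, and none of the 15 passed. Summed stromal, T cell, dendritic cell and macrophage markers separated these groups too, as given above, and their part in these values was not tested.

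Epithelial and macrophage genotype effects were then compared in one fit. The difference, (cre_EC minus wt_EC) minus (cre_LP minus wt_LP), passed for 0 of 45 members (edgeR), against 0.702% of 16375 genes. At an unadjusted p under 0.05 there were 7 members (15.6%), beside 2509 of all genes (15.3%), and DESeq2 called 0 members. Its median was 0.34 over replication and -0.05 over mitotic members, against -0.04 over all genes. With RLE size factors the class medians were 0.40 and 0.01. Over the 19 alternatives they ranged from 0.14 to 0.48 and from -0.09 to 0.15. Mki67 had -1.20 (SE 0.363, adjusted p = 0.141 by edgeR) and Top2a 0.03 (SE 0.274, adjusted p = 0.994 by edgeR).

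Most members of both classes were higher in the epithelium than in the macrophages. In cre animals 31 members were higher in epithelial cells and 1 lower, against 21.7% of all genes higher and 30.9% lower, 52.7% in all (edgeR adjusted p under 0.05 and a log2 difference of at least 1). In wt animals 30 were higher and 1 lower, against 21.5% of all genes higher and 27.4% lower, 49% in all. The median log2 difference, EC minus LP, was 1.71 over replication and 1.53 over mitotic members in cre animals, and 1.20 and 1.51 in wt animals. The medians over all genes were -0.12 and -0.03.

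Of the members, Tyms had the largest difference in cre animals, with 25.9 ± 3.07 FPKM in cre_EC (SD, n = 4) and 3.35 ± 0.831 FPKM in cre_LP (SD, n = 3), a log2 difference of 3.05 (SE 0.222, adjusted p = 3.32e-09 by edgeR). Cyclin B1 had the largest in wt animals, with 17.0 ± 4.01 FPKM in wt_EC and 2.61 ± 0.399 FPKM in wt_LP, a log2 difference of 2.82 (SE 0.211, adjusted p = 5.40e-09 by edgeR for Ccnb1). Plk1 (2.51 in cre, 2.73 in wt), Aurka (2.41 and 2.46), Uhrf1 (2.71 and 2.29) and Cdk1 (2.29 and 2.34) were also among the most epithelial. All 5 genes of nucleotide supply and all 4 genes of the mitotic cyclins and Cdk1 passed in both genotypes.

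E2f1, the activating factor of S phase genes, ran the other way. It stood at 2.29 ± 0.601 FPKM in cre_EC and 8.42 ± 1.40 FPKM in cre_LP, and at 2.47 ± 0.405 FPKM in wt_EC and 5.71 ± 0.808 FPKM in wt_LP. The log2 difference, EC minus LP, was -1.77 in cre (adjusted p = 2.45e-06 by edgeR) and -1.09 in wt animals (adjusted p = 0.000438 by edgeR). Without wt_LP mouse 2 no member was called lower in wt animals.

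Several members were not called between the cell types. Pcna had log2 differences of 0.11 in cre and 0.31 in wt animals, Mcm3 0.17 and 0.24, and Mcm4 0.14 and -0.22, and none of these passed. Mki67 had -0.99 in cre animals (adjusted p = 0.00239 by edgeR, short of the log2 limit of 1) and 0.20 in wt animals (adjusted p = 0.518 by edgeR). Its level was 0.737 ± 0.0787 FPKM in cre_EC and 1.57 ± 0.332 FPKM in cre_LP, against 0.852 ± 0.304 FPKM in wt_EC and 0.806 ± 0.106 FPKM in wt_LP. Macrophage libraries held RNA of other cells, as given above, and its part in their cell cycle levels was not tested.

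**Figure D5:**
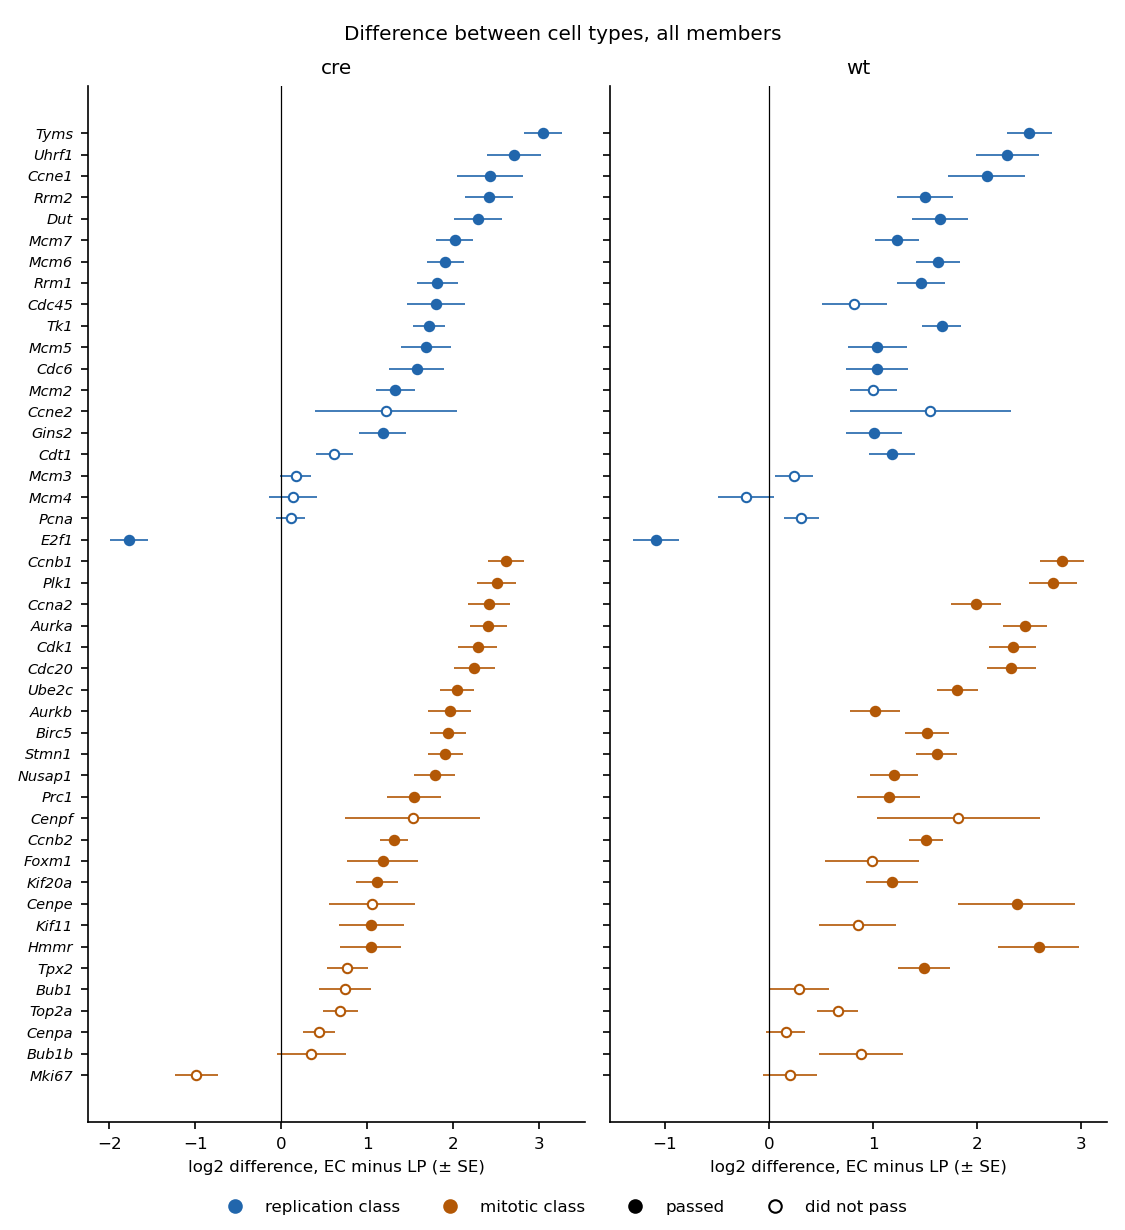
Log2 difference, EC minus LP, of every member in cre (left) and wt animals (right), with bars of 1 SE and filled points for genes that passed with a log2 difference of at least 1. Most members of both classes lie to the right of 0 (31 and 30 passed), and E2f1 lies to the left in both panels.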

How the data were processed

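Libraries were Smart-seq2 cDNA tagged with Nextera XT and read as single 50 bp reads, without strand, per the labels' protocols. Per the submitters' processing notes, the build was GRCm38 (mm10) and the tools were DESeq2 1.24.0, Picard 2.19.2 and STAR 2.5.2b, with no role stated for each. Not given in the sources used here are the counting tool, its strand setting and the gene annotation release. Reads of antisense partners cannot be told apart, and reads of paralogs or pseudogenes may be split.

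The authors deposited raw counts per gene and library, and FPKM. The test was edgeR 4.0.16 in R 4.3.3 (TMM, filterByExpr at a minimum count of 10, robust quasi-likelihood F test, Benjamini-Hochberg adjusted p under 0.05 over all genes tested). Genotypes were compared within each cell type by a fit of its own libraries. Cell types, and genotype effects between them, were compared in a fit of all 14 libraries, and the cell type calls also needed an absolute log2 difference of 1. Standard errors are the absolute log2 change over the square root of F. CPM are counts scaled by the TMM library size within a cell type, so member levels across cell types are given in FPKM. Summed marker CPM instead used TMM library sizes over all 14 libraries. All 45 members passed the filter in each main fit. With the filter at 50 counts 41 were tested in the epithelium, 31 in macrophages and 43 across cell types. In the epithelium each limma fit on FPKM tested 41. Foxm1 was not tested in these epithelial alternatives. No 2 libraries were copies (smallest chi-square per degree of freedom 6.72).

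Members, lists and classes were chosen with earlier results of these data known. Values per library are given for members that passed and for the 3 with the smallest p per class among the rest. From other lists, up to 4 genes that passed are named. Macrophage and cell type examples were chosen after their values were seen. Trends on GC content and length (GENCODE M21 transcripts) were removed with splines of 5 degrees of freedom each. Other alternatives were RLE factors, DESeq2 1.42.0, no filter or one at 50 counts, limma 3.58.1 on log2(FPKM + 1) or log2(FPKM + 0.1) of genes with a mean FPKM of 1, sex or ribosomal RNA share as covariates, males only, all libraries in one fit, ribosomal, mitochondrial and pseudogene rows left out, Stmn1 counted with replication, a block on mouse number (limma's voom with duplicateCorrelation), and each library left out. The scripts were tested on simulated data.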

Additional observations from a re-analysis of the deposited data

Results flagged for a closer look

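In groups of 4 libraries, a library far from the others in its group was looked for in 94 combinations of group and measure, and 3 were found. Chance alone flags about 1 in 20 such combinations. Ccne2 stood at 5.25 CPM in cre_EC mouse 8, above 2.64 to 3.07 CPM in the other cre_EC libraries. The ribosomal RNA share was 26.7% of counts in the same library, cre_EC mouse 8, above 7.37% to 10.6% in the others. Hmmr stood at 5.74 CPM in wt_EC mouse 6, below 12.6 to 13.7 CPM in the other wt_EC libraries.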

How the results depend on the processing

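In the epithelium 1243 genes were called, 765 higher and 478 lower in cre_EC. DESeq2 called 1884, males alone 5, the fit of all 14 libraries 19, the ribosomal RNA covariate 3, removal of the GC and length trend 593 (463 higher, 130 lower), and leaving out cre_EC mouse 8 and wt_EC mouse 6 together, chosen after seeing the data, 2359. With each library left out in turn the count was 178 to 1947. In macrophages 133 genes were called, against 497 by DESeq2, 299 without the filter, 2 with sex as a covariate and 29 to 87 with a library left out. For the difference of genotype effects 115 were called, against 511 by DESeq2, 195 without the filter and 54 to 229 with a library left out. Between cell types in wt animals 8020 were called, and 7769 to 8313 with a library left out.

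Of the replication members 1 was called, against 4 without the filter, 0 with the filter at 50 counts, males alone, all 14 libraries or the ribosomal RNA covariate, 3 without the 2 libraries above, 2 with Stmn1 counted there, and 0 to 2 with a library left out. Of the mitotic members 4 were called, against 0 with males alone, all 14 libraries or the ribosomal RNA covariate, 2 with the GC and length trend removed, and 0 to 5 with a library left out. The replication median of 0.13 turned to -0.05 with the ribosomal RNA covariate and was -0.03 to 0.21 with a library left out, the negative value being without wt_EC mouse 6. The mitotic median of 0.14 was 0.04 to 0.27 with a library left out and positive in all 21 alternatives. It was only 0.01 without cre_EC mouse 8 and wt_EC mouse 6. The SD between epithelial libraries of the mitotic median deviation was 0.213, larger than the median of 0.14. Ccne2 turned to 0.22 between males, and Mki67, at -0.26, was at 0.15 between males, 0.12 with the GC and length trend removed and 0.02 without wt_EC mouse 2. The cause of these shifts was not tested.

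Mouse numbers are shared by cell types but not by genotypes, so a replicate block was possible only in fits across cell types. With the block, fitted by limma's voom in place of edgeR, so that block and tool changed together, 98 genes were called for the difference of effects and 8026 between cell types. Deviations of libraries with the same mouse number correlated at -0.0316 to 0.0861 over 6 pairs. Matched within a genotype against the other cell type, where few candidates exist, 5 of 12 libraries correlated best with their own number. The main fits of all 14 libraries used no block and took the libraries as independent. These values cannot show whether libraries of the same number came from different mice.

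Depth limits the low genes: the fewest counts of a member in an epithelial library were 14.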
